A study of Drosophila melanogaster with 14 samples.

Results

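The genes described are 8 transcription factors without a homeodomain, ab, dan, rn, disco-r, dl, Ets96B, danr and dati, among 13931 genes measured in Kenyon cells (KCs), the intrinsic neurons of the Drosophila melanogaster mushroom body (MB). They were chosen by their gene TPM in these same libraries, as factors whose level differed between MB classes or subtypes, so their gene levels are given as a description and support nothing by themselves. The share of each of their 29 transcripts, of 30484 in the transcript table, within its gene was not part of that choice. These shares were compared between classes and subtypes.

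Nuclear RNA was isolated with TAPIN-seq, a method that tags nuclei of chosen cells, purifies them and sequences their RNA, and was quantified as TPM (transcript abundance scaled to a fixed total per library and corrected for transcript length). There were 14 libraries from 7 split-GAL4 lines, 2 for each line, each from 400 heads of adult flies of both sexes aged 2 to 5 days. The γ class was sampled as γd (MB607B) and γm+d (MB131B), the α′/β′ class as α′/β′ap+m (MB370B) and α′/β′m (MB418B), and the α/β class as α/βp (MB371B), α/βs (MB185B) and α/βc (MB594B). Every group carried the same nuclear reporter, 5XUAS-unc84::2XGFP, in MJ2, an isogenic background derived from Canton-S. The MB131B line also labels γd cells weakly, the MB370B line includes the α′/β′m cells, and each line labels a few neurons outside the MB, so a subtype is the set of nuclei its driver tags. The libraries of a line are described as independent biological replicates, and with 2 per line a subtype's own spread is poorly known.

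KCs are born in a fixed order from a few neuroblasts, first γ, then α′/β′, then α/β, and each class sends its axons to its own lobes of the MB. Zinc-finger and BTB-domain factors are known to control this order and the shapes of the neurons. The 8 factors come from several families: ab, with a BTB domain and zinc fingers, shapes dendrites and motor axons; rn and disco-r are zinc-finger proteins that pattern legs and head appendages; dan and danr are pipsqueak-motif proteins of the antenna and eye; dl is the Rel protein of the Toll pathway; Ets96B has an ETS domain, the DNA-binding domain of factors downstream of the ERK kinase; and dati is a zinc-finger protein that acts in neurons, where it is needed for female mate acceptance.

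All 6 KC markers (ey, toy, dac, rut, Mef2, sNPF) reached 10 TPM in both libraries of every subtype, with summed levels of 4331 to 9866 TPM. Libraries differed in completeness: 5632 and 7601 genes were above 0 in γd and 6534 and 9602 in α/βp, against 8836 to 11359 in the other libraries. Of 84 ribosomal protein genes, 41 were listed at 0 in γd replicate 1 and 31 in α/βp replicate 1, against 3 to 14 elsewhere, so a 0 in those libraries can be a missed gene. Of the markers of other cells of the head, those of fat body and photoreceptors were highest in α/βp replicate 2. They summed to 6117 TPM over the fat body list and 3851 TPM over the photoreceptor list. α/βp replicate 1 had 1758 and 1539 TPM for these lists, within the range of the other 6 subtypes (423 to 2465 TPM and 366 to 1792 TPM), while hemocyte genes summed to at most 3.89 TPM in any library. The neuronal list summed to 8250 to 15080.1 TPM, the monoaminergic list to 26.4 to 81.5 TPM and the muscle list to 81.9 and 273 TPM in α/βp against 10.2 to 82.1 TPM elsewhere.

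In the γ class, ab (FBgn0264442; BDGP6, chromosome 2L, 11210678 to 11261080, plus strand) was at 393 and 440.1 TPM in γd and 320.5 and 437 TPM in γm+d. The α′/β′ libraries had 5.73 and 5.27 TPM in α′/β′ap+m and 10.6 and 26.8 TPM in α′/β′m. The α/β libraries had 34.8 and 50.5 TPM in α/βp, 9.89 and 7.97 TPM in α/βs, and 17.9 and 23.4 TPM in α/βc. All 4 γ libraries lay above the other 10, at 398 ± 55.8 TPM against 19.3 ± 14.8 TPM (SD), and the lowest γ library was 6.34 times the highest of the others, α/βp replicate 2. The γd and γm+d levels overlapped. Outside γ the order was α/βp, α/βc, α′/β′m, α/βs and α′/β′ap+m, and among these only α/βc and α′/β′m overlapped. In bulk nuclei, a lower level cannot be told apart from fewer nuclei that express the gene.

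dan (FBgn0039286; chromosome 3R, 25184383 to 25192806, plus strand) was highest in γd, at 55.2 and 58.4 TPM, and had 6.82 and 11.8 TPM in γm+d. It was at 2.57 and 2.91 TPM in α′/β′ap+m and 1.23 and 4.33 TPM in α′/β′m. In α/β it had 0 and 0.12 TPM in α/βp, 0.29 and 0 TPM in α/βs, and 0.53 and 1.47 TPM in α/βc. The γd libraries lay apart from all others, 4.68 times above the next library, and all γ libraries lay above all α′/β′ libraries. The subtype means followed the classes, γ above α′/β′ above α/β, but α′/β′m replicate 1 (1.23 TPM) lay below α/βc replicate 2 (1.47 TPM). Both γd libraries and γm+d replicate 2 were at or above 10 TPM. Because the MB131B line also labels γd cells, the dan level in γm+d cannot be told apart from that of its γd nuclei. danr, a relative of dan 44479 bases upstream on the same strand with no protein-coding gene between them, had its highest TPM in another subtype.

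danr (FBgn0039283; chromosome 3R, 25138072 to 25139903, plus strand) was at 46.9 and 30.7 TPM in α′/β′ap+m, against 0.62 and 4.88 TPM in α′/β′m. The γ libraries had 2.30 and 22.8 TPM in γd and 1.34 and 10.2 TPM in γm+d. In α/β it was at 0 and 1.76 TPM in α/βp, 0 and 7.30 TPM in α/βs, and 0 and 0.14 TPM in α/βc. In TPM the α′/β′ap+m libraries lay above every other library, but by 1.35 times at the closest point, γd replicate 2. This lead depended on the scaling: the mean log2 difference of α′/β′ap+m and γd, 2.14, fell to 0.09 after the quantile normalization used in the tests below. Below α′/β′ap+m the order in TPM was γd, γm+d, α/βs, α′/β′m, α/βp and α/βc. Each of these 6 overlapped its neighbour, since their 2 libraries differed widely. Because the MB370B line includes α′/β′m cells, in which danr was low by the MB418B line, the α′/β′ap+m libraries mix both kinds of nuclei.

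Ets96B (FBgn0039225; chromosome 3R, 24788054 to 24797955, plus strand) was at 14.5 and 24.0 TPM in α′/β′m and between 0 and 0.49 TPM in the other 12 libraries. The lower α′/β′m library was 29.6 times the highest of these. Both γd libraries listed Ets96B at 0, and in α′/β′ap+m it had 0.30 and 0.08 TPM. The MB370B line of α′/β′ap+m includes α′/β′m cells, yet it did not show the level seen with the MB418B line. Why these lines differ was not tested. The 7 glial markers summed to 308 and 238 TPM in α′/β′m against 49.2 to 225 TPM elsewhere. Among them, Eaat1 was at 75.6 and 69.3 TPM in α′/β′m against 1.62 to 22.0 TPM elsewhere, while alrm was highest in α/βs replicate 2, at 80.0 TPM. The part of glial cells in the Ets96B level was not tested. Ets96B shares 496 exonic bases with Ude and 16 with CG13634, both on the opposite strand, and reads there cannot be assigned where strand is not used.

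rn (FBgn0267337; chromosome 3R, 7272617 to 7309629, minus strand) ran from 0.05 to 2101 TPM. It was at 2101 and 2099 TPM in α/βp, against 26.8 and 17.5 TPM in α/βs and 4.05 and 6.05 TPM in α/βc. The α′/β′ libraries were intermediate, with 146 and 147 TPM in α′/β′ap+m and 227 and 222 TPM in α′/β′m. In γ it was nearly absent, at 0.13 and 0.05 TPM in γd and 4.80 and 2.90 TPM in γm+d. The α/βp libraries were 9.26 times the next library, and rn thus divided the α/β class: α/βp lay above, and α/βs and α/βc below, all 4 α′/β′ libraries. In the order α/βp, α′/β′m, α′/β′ap+m, α/βs, α/βc, γm+d, γd, only α/βc and γm+d overlapped.

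disco-r (FBgn0285879), which lies on the minus strand of the X chromosome between 16118067 and 16148977, was at 49.8 and 88.9 TPM in α/βp. Elsewhere it ranged over 2.10 to 16.9 TPM with a median of 4.25 TPM, and the highest of these 12 libraries was α′/β′m replicate 1, whose other library had 4.25 TPM. The α/βp libraries lay 2.95 times above it. Its relative disco, a zinc-finger gene 61620 bases away with no protein-coding gene between them, was at 5.64 and 29.6 TPM in α/βp and 0.23 to 8.12 TPM elsewhere, so its groups overlapped.

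dl (FBgn0260632; chromosome 2L, 17436830 to 17450364, minus strand) was highest in α/βp as well, at 189 and 325 TPM, and next in α′/β′ap+m, at 104 and 108 TPM. The other α/β libraries had 67.6 and 63.5 TPM in α/βs and 59.6 and 36.1 TPM in α/βc. α′/β′m had 23.4 and 28.1 TPM, γd 27.4 and 59.1 TPM, and γm+d 18.9 and 24.2 TPM. The α/βp libraries lay 1.75 times above the next library, and the 4 lowest subtypes, α/βc, γd, α′/β′m and γm+d, overlapped in turn. Within α′/β′, dl thus had its higher level in α′/β′ap+m, where Ets96B was near 0, and its lower level in α′/β′m.

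Several markers of other cells were also highest in α/βp, the subtype in which these 3 factors, rn, disco-r and dl, were highest. Gad1, of GABAergic neurons, was at 154 and 88.3 TPM in α/βp against 2.03 to 61.7 TPM elsewhere, and VGlut, of glutamatergic neurons, at 63.0 and 37.5 TPM against 4.33 to 22.9 TPM. Between the 2 α/βp libraries, Gad1 and VGlut were higher in replicate 1. disco-r and dl were higher in α/βp replicate 2, the library with the highest fat body and photoreceptor sums, whereas rn was at 2101 and 2099 TPM in the 2 α/βp libraries. In α/βp replicate 1, whose fat body and photoreceptor sums were within the range of other subtypes, disco-r was at 49.8 TPM and dl at 189 TPM. The part of any of these other cells in the levels was not tested.

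dati (FBgn0262636; chromosome 4, 375640 to 395605, minus strand) was abundant in every library, from 803 to 2218 TPM. It was at 1227 and 956 TPM in γd and 1064 and 803 TPM in γm+d. The α′/β′ libraries had 1485 and 1379.9 TPM in α′/β′ap+m and 1990.5 and 1493 TPM in α′/β′m. The α/β libraries had 1099 and 1153 TPM in α/βp, 1783 and 2023 TPM in α/βs, and 2218 and 1859 TPM in α/βc. The γ libraries averaged 1013 ± 179 TPM (SD, n = 4), below α′/β′, α/βs and α/βc but overlapping α/βp.

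**Figure D1:**
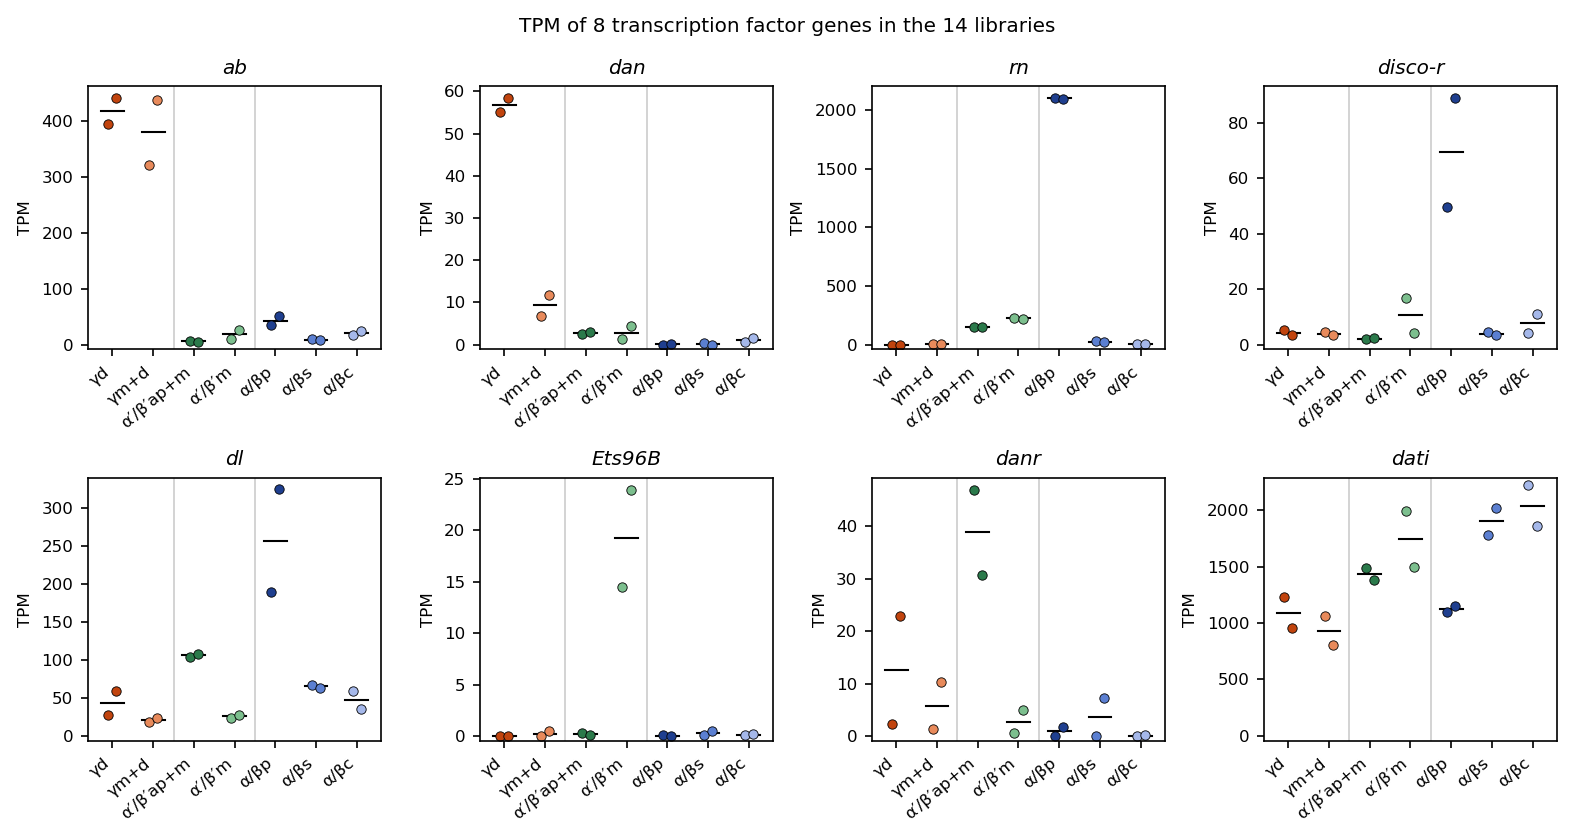
TPM (vertical axes, linear and different for each gene) of the 8 factors in the 7 subtypes. Each point is 1 library, each black bar the mean of 2, and grey lines separate the γ, α′/β′ and α/β classes. ab separated the 4 γ libraries from the rest, dan the γd libraries, rn, disco-r and dl the α/βp libraries and Ets96B the α′/β′m libraries, while dati was above 803 TPM in all 14.

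As a description of these levels, the rule of at least 2-fold with an adjusted p under 0.05 against every other class (limma on quantile-normalized log2(TPM + 1), Benjamini-Hochberg over 8646 genes) was met by 2 of the 8, ab and dan in γ, where 3.68% of all genes met it. Against every other subtype it was met by 3 of the 8, dan in γd, Ets96B in α′/β′m and rn in α/βp, where 1.34% of all genes met it. Since the 8 were chosen for such patterns, nothing is read from these counts. On the log2(TPM + 1) scale, ab was 4.24 higher in γ than in α/β, and under 14 alternatives this difference was 3.97 to 4.64. For dati the difference between α/β and α′/β′, 0.05, changed sign under 3 of 14 alternatives, and for danr that between α′/β′ and γ, 0.70, under 2 of 12. With quantile normalization the danr difference was -0.45.

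The classes differed in the dati transcript they used. dati has 4 annotated transcripts with 3 start sites. dati-RC begins at the most upstream site (395605, 10 exons) and encodes 1150 residues, and dati-RA and dati-RB begin 2195 bases downstream at 393410. dati-RD begins 7283 bases downstream (388322, 9 exons) and encodes 791 residues: 2343 of its 2373 coding bases are shared with dati-RC and it ends at the same stop codon, but it lacks the first large coding exon.

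γ KCs used dati-RD. Its share of dati TPM was 81.7% and 87.6% in γd and 79.7% and 68.7% in γm+d. In α′/β′ it was 11.4% and 11.4% in α′/β′ap+m and 9.49% and 7.91% in α′/β′m. In α/β it was 2.30% and 1.89% in α/βp, 4.10% and 3.55% in α/βs, and 5.19% and 5.71% in α/βc. The classes did not overlap: γ lay above 68%, α′/β′ between 7.91% and 11.4%, and α/β at or below 5.71%. dati-RC had the reverse pattern, with 4.04% and 3.24% in γd and 16.1% and 15% in γm+d, against 69.2% to 87.9% in the 4 α′/β′ libraries and 76.5% to 95.4% in the 6 α/β libraries. α/βp, whose gene level overlapped that of γ, was on the side of the other α/β subtypes in the transcript it used.

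The share of each transcript was compared between classes by a limma fit over all transcripts of genes with at least 2 transcripts at 10 TPM and a gene level of at least 10 TPM in every library of the pair, with Benjamini-Hochberg adjustment over all of them and a call at an adjusted p under 0.05 and 10 percentage points. The class fit took all libraries of a class as independent, although they come in pairs from the same driver line. Its SE and p do not account for these pairs. Only dati and dl of the 8 genes passed these minimums. dati-RD averaged 79.4% in γ and 10.0% in α′/β′, a difference of 69.4 percentage points (SE 3.95, adjusted p = 0.00149), and 3.79% in α/β, a difference of 75.6 (SE 3.21, adjusted p = 1.34e-05). dati-RC averaged 9.58% in γ and 77.1% in α′/β′, a difference of -67.5 (SE 5.39, adjusted p = 0.00601), and 86.4% in α/β, a difference of -76.8 (SE 4.54, adjusted p = 0.000124). These 4 were the only calls among the 8 genes, where 0.212% of 6605 transcripts were called between γ and α′/β′ and 0.15% of 6670 between γ and α/β. By size, dati-RD and dati-RC were the first and second of all 6605 transcripts in γ against α′/β′, and dati-RC and dati-RD the first and second of 6670 in γ against α/β. Each of the 4 was called in all 20 alternatives, with an adjusted p of at most 0.0483, including those without γd replicate 1.

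Between α′/β′ and α/β neither transcript was called. In α′/β′ minus α/β, dati-RD differed by 6.26 percentage points (SE 1.37, adjusted p = 0.165) and dati-RC by -9.26 (SE 4.99, adjusted p = 0.882), where 0.334% of all transcripts were called. The share of dati-RA and dati-RB together was 2.26% to 19.3% with overlapping classes, and neither was called in any pair.

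The comparison of subtypes was added after the shares had been seen. It fitted 1 mean per subtype and estimated the spread from all libraries in which the gene reached 10 TPM. dati-RC and dati-RD were called in all 10 pairs of a γ subtype with a subtype of another class, where 2.5% of all transcripts were called in γd against α′/β′ap+m, 2.51% against α′/β′m, 2.54% against α/βp, 2.18% against α/βs and 2.63% against α/βc. In γm+d against these, 0.191%, 0.233%, 0.691%, 0.208% and 0.202% were called in the same order of subtypes. The smallest of these dati-RD differences was 62.8 percentage points in γm+d against α′/β′ap+m (SE 3.75, adjusted p = 0.000365) and the largest 82.5 in γd against α/βp (SE 3.66, adjusted p = 1.96e-05). Within γ, dati-RC was at 3.64% in γd and 15.5% in γm+d, a difference of -11.9 (SE 2.88, adjusted p = 0.0947) that was not called, nor was that of dati-RD, 10.4 (SE 3.65, adjusted p = 0.218), where 1.56% of all transcripts were called. Outside γ, 1 pair was called: dati-RC averaged 69.7% in the α′/β′ap+m libraries and 92.9% in those of α/βp, a difference of -23.2 (SE 2.90, adjusted p = 0.0112; 0.546% of all transcripts called), which was lost without either α′/β′ap+m library (adjusted p = 0.0923 and 0.115). With the spread estimated from the 4 libraries of a pair alone, 4 of the 21 dati calls were made, those of γd against α′/β′ap+m and γd against α/βc.

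In TPM, dati-RD was at 552 to 1002 in the γ libraries and at 21.8 to 189 in the other 10, and dati-RC at 31.0 to 171 in γ and 956 to 1815 in the others. dati shares 210 exonic bases with asRNA:CR44027 on the opposite strand. The deposited estimates divide reads among transcripts that share most of their bases, so a share rests on the reads that fall in the exons that differ. The first exon of dati-RD lies within an intron of dati-RC, and the RNA was nuclear. Reads of unspliced RNA there would count to dati-RD, and their part in the shares was not tested.

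**Figure D2:**
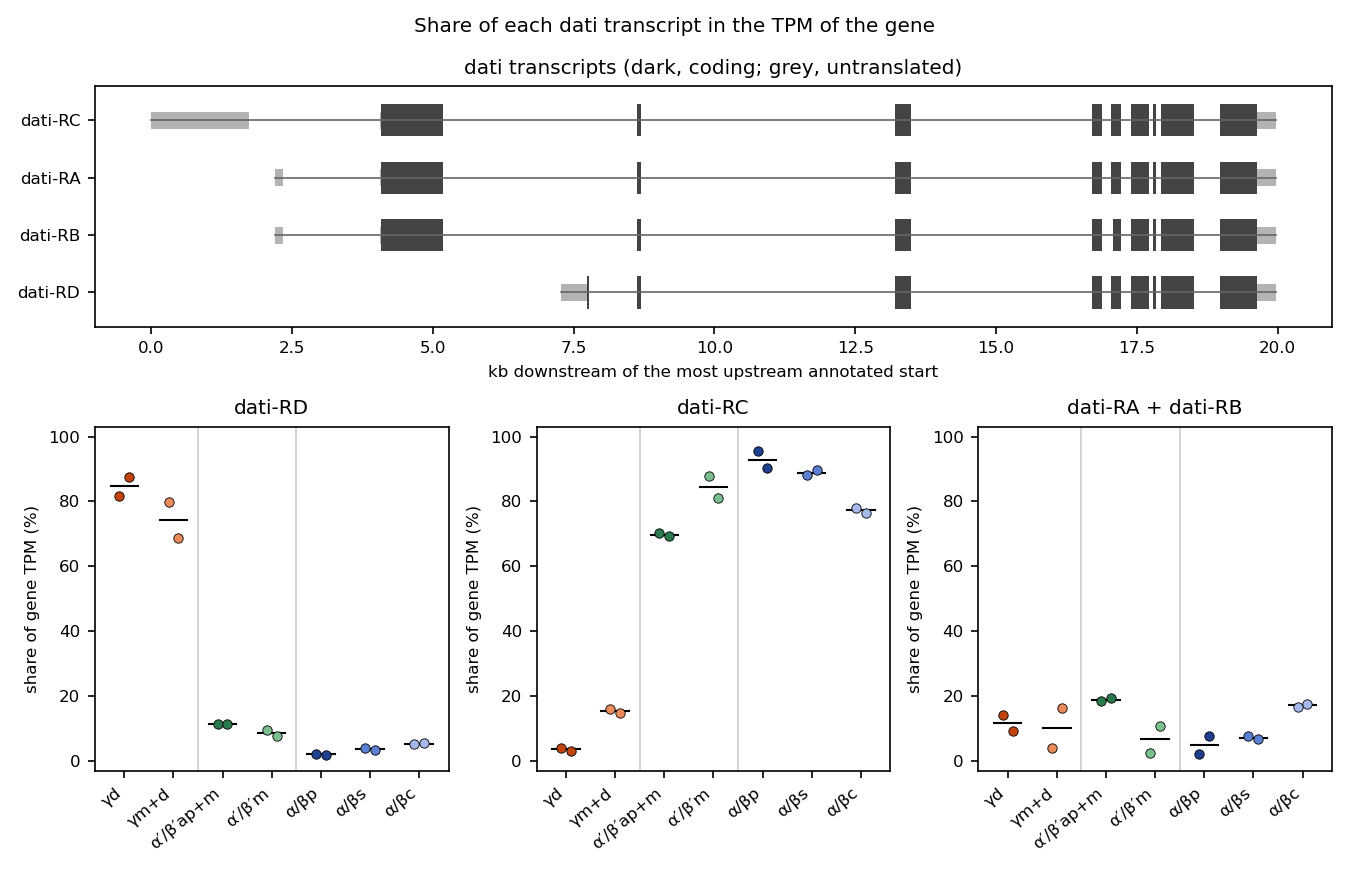
Top, annotated dati transcripts drawn to scale by distance in kb from the most upstream start, with coding parts dark and untranslated parts grey. Bottom, share of dati-RD, dati-RC and dati-RA plus dati-RB in the TPM of dati (vertical axes, percent), with 1 point per library and the mean of 2 as a bar. dati-RD held at least 68.7% in the γ libraries and at most 11.4% in the others, and dati-RC the reverse.

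rn transcripts differed between the α′/β′ subtypes and 2 of the 3 α/β subtypes, with rn too low to test in α/βc. rn-RC starts 32150 bases downstream of the most upstream start (7277479, 3 exons, 692 residues), and rn-RF 7396 bases downstream (7302233, 8 exons, 927 residues). They share 1353 coding bases and the stop codon. The first exon of rn-RC lies within an intron of rn-RF, so the limit given for unspliced RNA and dati-RD holds here too. rn-RE and rn-RG begin at the most upstream start, 7309629, have the same exons and so have equal estimates, which summed to 15.9 and 95.5 TPM in α/βp.

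rn was above 10 TPM in both libraries of 4 subtypes. rn-RF made up most of it in the 2 α′/β′ subtypes, and rn-RC in α/βp and α/βs. rn-RC was at 8.74% and 10.0% in α′/β′ap+m and 5.19% and 11.9% in α′/β′m, against 74.4% and 77.6% in α/βp and 95.1% and 97.7% in α/βs. rn-RF was at 91.1% and 88.7% in α′/β′ap+m and 94.8% and 88.1% in α′/β′m, against 24.9% and 17.9% in α/βp and 4.88% and 2.28% in α/βs. These 2 α/β subtypes did not overlap the α′/β′ subtypes in either share, although the level of rn in α/βp was above, and that in α/βs below, its level in α′/β′. α/βc, with rn at 4.05 and 6.05 TPM, was not tested. There rn-RC was at 7.65% and 0% and rn-RF at 92.3% and 100%. These shares rest on 0.31 and 0 TPM of rn-RC and 3.74 and 6.05 TPM of rn-RF, so nothing is read from them.

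Both transcripts were called in all 4 pairs that could be tested of an α′/β′ with an α/β subtype, in the comparison added after the shares had been seen. rn-RC differed by -66.6 percentage points in α′/β′ap+m against α/βp (SE 3.48, adjusted p = 0.00532), where 0.546% of all transcripts were called, and by -67.4 in α′/β′m against α/βp (SE 3.44, adjusted p = 0.00527), where 0.949% were. Against α/βs it differed by -87.0 from α′/β′ap+m (SE 3.65, adjusted p = 0.00316; 0.308% of all transcripts called) and by -87.9 from α′/β′m (SE 3.57, adjusted p = 0.00229; 0.255% called). rn-RF differed by 68.5 to 87.8 percentage points in the opposite direction (adjusted p = 0.00313 to 0.00666). Within a class no rn transcript was called: rn-RC differed by 0.82 percentage points in α′/β′ap+m against α′/β′m (adjusted p = 1) and by -20.5 in α/βp against α/βs (SE 3.49, adjusted p = 0.168).

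The calls against α/βp in α′/β′ap+m were lost without either α′/β′ap+m library (adjusted p = 0.0584 and 0.0566 for rn-RC, 0.0632 and 0.0739 for rn-RF), and that of rn-RF in α′/β′ap+m against α/βs without α/βs replicate 2 (adjusted p = 0.0507). With only the 4 libraries of a pair, the α′/β′ap+m against α/βs calls were kept (adjusted p = 0.0407 for rn-RC and 0.0413 for rn-RF) and the other 6 rn calls were lost, with an adjusted p of up to 0.258. In TPM, rn-RF was at 131 to 215 in α′/β′, against 523 and 375 in α/βp. rn-RC was at 11.8 to 26.4 in α′/β′, against 1562 and 1628 in α/βp and 25.5 and 17.1 in α/βs. In γ, where rn was below 5 TPM, rn-RF was at 4.80 and 1.33 TPM in γm+d.

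**Figure D3:**
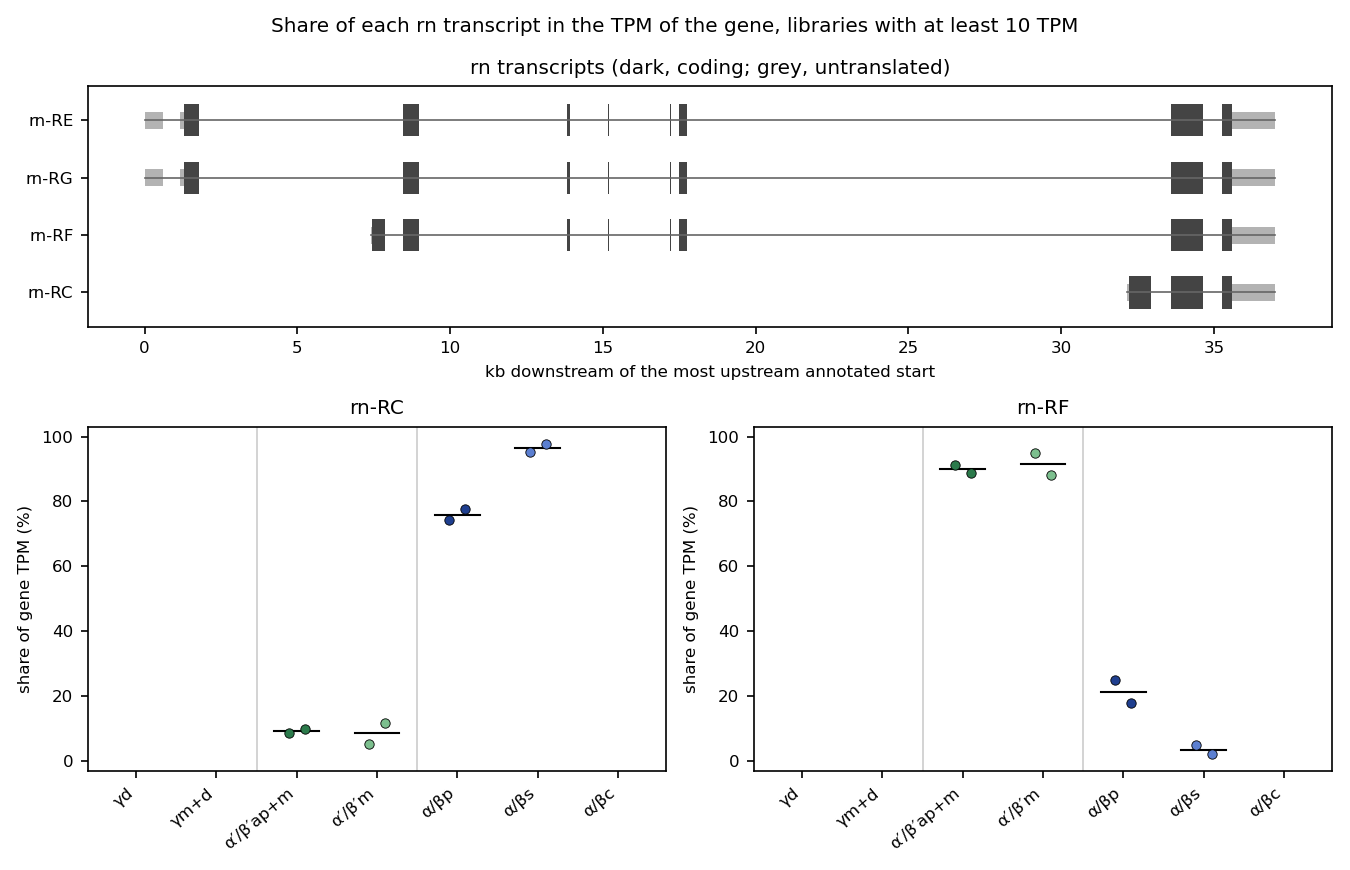
Top, annotated rn transcripts drawn to scale by distance in kb from the most upstream start. Bottom, share of rn-RC and rn-RF in the TPM of rn (vertical axes, percent) in the libraries with at least 10 TPM of rn, with 1 point per library and the mean of 2 as a bar. rn-RC held at most 11.9% in α′/β′ and at least 74.4% in α/βp and α/βs.

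For dl the subtypes were compared in the use of an internal start site. dl-RD and dl-RF begin at an internal site, 17445567, which lies 4797 bases downstream of the upstream site, 17450364, of dl-RA, dl-RB and dl-RC, and dl-RE begins between them. All share their first coding exons. The first exon of dl-RD and dl-RF lies within an intron of the upstream transcripts, so the part of unspliced nuclear RNA was not tested here either. dl-RC and dl-RF end in a long exon that covers bases intronic in the others, and encode 999 residues, against 677 for the others, with the same start codon and another stop codon.

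The internal start was on average lowest in α′/β′m and highest in α/βp. It was at 77.6 and 81.5 TPM in α′/β′ap+m and 0 and 0.48 TPM in α′/β′m, whereas the upstream start was at 19.4 and 20.4 TPM in α′/β′ap+m and 22.6 and 25.4 TPM in α′/β′m. In γ the internal start was at 27.4 and 37.5 TPM in γd and 1.19 and 1.55 TPM in γm+d. In α/β it was at 111 and 197 TPM in α/βp, 36.8 and 19.1 TPM in α/βs, and 0 and 7.42 TPM in α/βc. Its level was higher in γd than in γm+d, in α/βp than in α/βc, and in α′/β′ap+m than in α′/β′m, without overlap between the libraries of each pair. These pairs were picked after the values were seen, and the share of all start sites that separate so was not computed. The level of a start site is also part of the gene level by which dl was chosen, so nothing is read from this separation. The upstream start was at 63.4 and 100.5 TPM in α/βp and at 0 to 58.6 TPM elsewhere, with 0 in γd replicate 1, 1 of the libraries with the fewest genes.

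**Figure D4:**
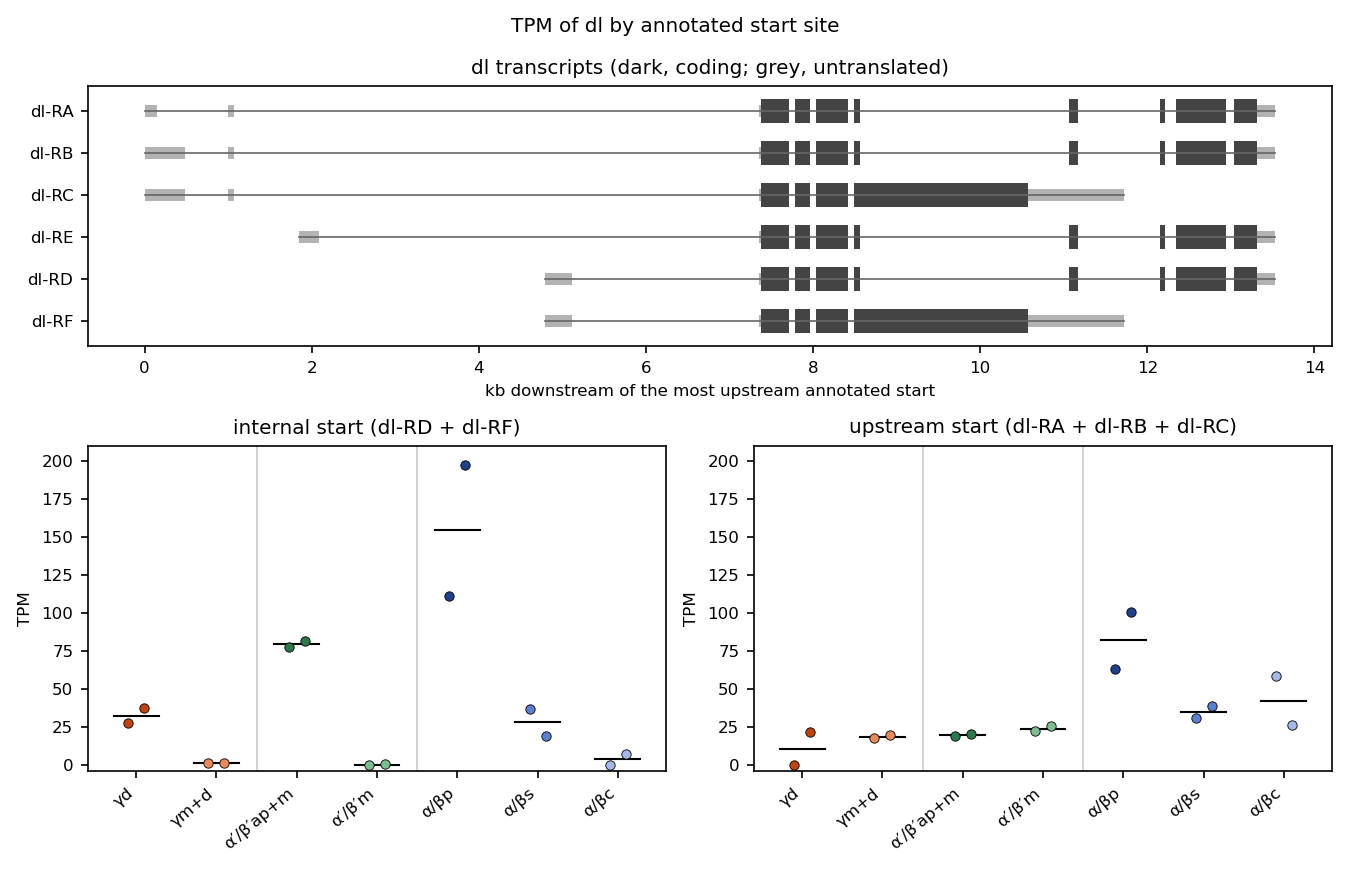
Top, annotated dl transcripts drawn to scale by distance in kb from the most upstream start. Bottom, TPM summed over the transcripts of the internal and of the upstream start (vertical axes, linear, same scale), with 1 point per library and the mean of 2 as a bar. The internal start was at 77.6 and 81.5 TPM in α′/β′ap+m and at most 0.48 TPM in α′/β′m, while the upstream start was at 19.4 to 25.4 TPM in both.

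No dl transcript passed between classes (adjusted p of at least 0.771). The test by start site, also added after the shares had been seen, called the internal start in 3 pairs of subtypes, all with γd. It held 81.8% of dl in γd and 6.36% in γm+d, a difference of 75.4 percentage points (SE 12.1, adjusted p = 0.0241; 1.73% of all start sites called). Against 0.855% in α′/β′m the difference was 80.9 (SE 12.1, adjusted p = 0.0166; 3.17% called), and against 10.3% in α/βc it was 71.5 (SE 12.1, adjusted p = 0.0205; 2.55% called). The upstream start was called in the same pairs, with differences of -68.8, -75.2 and -66.9 percentage points. Its calls were lost in 13, 5 and 8 of 20 alternatives, and those of the internal start in 6, 3 and 3. The difference of α′/β′ap+m against α′/β′m, 74.1 percentage points (SE 12.2), was as large but not called (adjusted p = 0.191), in a pair where 0% of all start sites were called, and γm+d against α′/β′ap+m, at -68.6 (SE 12.2, adjusted p = 0.0742; 0.333% of all start sites called), was not called either.

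These dl calls rest on few libraries. The internal start held 100% of dl in γd replicate 1 and 63.5% in γd replicate 2. Without γd replicate 1 the differences were 57.2, 62.7 and 53.3 percentage points against γm+d, α′/β′m and α/βc and stayed called (adjusted p = 0.0362, 0.0220 and 0.0373). Each was lost without either library of the second subtype (adjusted p = 0.0591 to 0.135), that against γm+d also without either α′/β′ap+m library (adjusted p = 0.0513), and all were lost with only the 4 libraries of the pair (adjusted p = 0.222 to 0.283). The long form of dl-RC and dl-RF together held 35.1% to 96.6% of dl. Of single dl transcripts, dl-RF was called by subtype in γd against α′/β′m (48.4 percentage points, adjusted p = 0.0484; 2.51% of all transcripts called) and in α′/β′m against α/βp (-59.0, adjusted p = 0.0442; 0.949% called), and both calls were lost in 15 alternatives.

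The other 5 factors showed no called change of transcript. ab could be tested in 10 pairs of subtypes and had no call in the limma fit (adjusted p of at least 0.433). In γ its upstream start, 11210678, held 68.6% and 69.4% in γd and 64.9% and 65.8% in γm+d, and ab-RE, 1119 bases downstream, held 30.6% to 34.7%. ab-RE shares 1585 of its 2697 coding bases with ab-RA and ends at another stop codon. Of Ets96B, dan, danr and disco-r no pair could be tested. Ets96B in α′/β′m was almost all Ets96B-RB, at 14.4 and 21.8 TPM, which starts 4307 bases downstream of Ets96B-RC. In γd dan came from dan-RA and dan-RB, which have the same exons and equal estimates, at 27.6 and 29.2 TPM each, while dan-RC, from a start 628 bases upstream, was at 0 in γd and 2.70 and 3.55 TPM in γm+d. disco-r used the start at 16148977, but the 2 α/βp libraries split it differently, with disco-r-RA at 44.6 and 0.52 TPM and disco-r-RC at 5.25 and 68.4 TPM, so its transcripts cannot be told apart here.

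Relatives of the 8 factors and genes of their pathways were then tested by gene level, in lists drawn up with earlier results of these data known. As with the shares, the class test of gene levels took libraries of the same driver line as independent. Of 16 BTB-domain factors, to which ab belongs, 15 were tested. The relative mamo, a BTB zinc-finger protein needed for α′/β′ identity, was lower in α/β than in both other classes. It was at 303 and 199 TPM in α/βp, 81.6 and 95.7 TPM in α/βs, and 81.7 and 56.4 TPM in α/βc, against 2013 to 4608 TPM in γ and 3055 to 6745 TPM in α′/β′. The groups did not overlap, the smaller log2 difference was -4.58 (limma, adjusted p = 1.67e-06), and the call was kept in all 23 alternatives. Among all genes tested, 1.79% were called as depleted from a class and 1.97% as enriched.

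fru, the BTB factor of male courtship, was higher in γ, like ab. It was at 2596 and 3399.5 TPM in γd and 2746 and 1786 TPM in γm+d, against 198 to 1402 TPM in the other 10 libraries, without overlap. Its smaller log2 difference was 1.89 (limma, adjusted p = 0.0365), and the call was lost without any single γ library or either α/βp or α/βc library (adjusted p = 0.0505 to 0.113). br, an ecdysone-response factor, was highest in α/βp, like rn, at 1504 and 967 TPM against 30.1 to 229 TPM elsewhere. It was called in α/βp (smallest log2 difference 2.56, adjusted p = 0.0141; 0.752% of genes called as enriched by subtype), and lost without α/βp replicate 1 or any α/βs or α/βc library (adjusted p = 0.0683 to 0.135). The α/βp libraries are those with the highest Gad1 and VGlut levels, whose part in the br level was not tested. The call of br in α/β as a class (2.17, adjusted p = 0.0419) was lost in 14 of 23 alternatives, among them those without either α/βp library, any α′/β′ library, either γm+d library or γd replicate 2 (adjusted p = 0.0536 to 0.134).

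**Figure D5:**
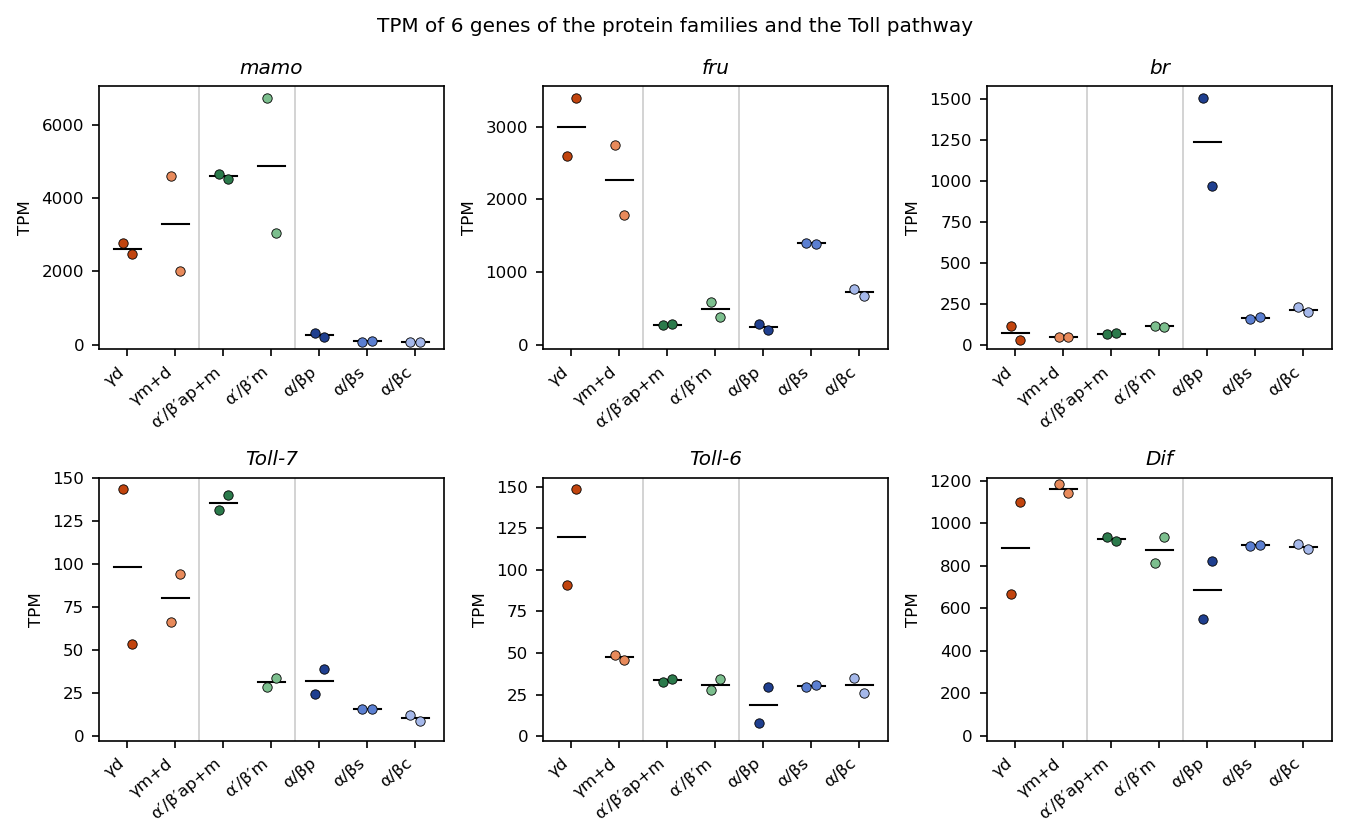
TPM (vertical axes, linear and different for each gene) of 6 genes from the tested lists in the 7 subtypes, with 1 point per library and the mean of 2 as a bar. mamo was at most 303 TPM in α/β and at least 2013 TPM elsewhere, fru was highest in γ and br in α/βp, and Dif was at 552 TPM or more in all libraries.

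In the other lists no gene was called by class or subtype (limma). Of 20 antennal and leg patterning genes, the setting in which rn, disco-r, dan and danr are best known, 11 were tested. At an unadjusted p under 0.05 and at least 2-fold against every other group, 1 passed by class and 1 by subtype. Of 11 retinal determination and pipsqueak-motif genes 7 were tested, with 1 and 0 at an unadjusted p, and of 22 ETS and ERK cascade genes 18, with 0 and 3. Of 31 Toll, Imd and NF-κB pathway genes 21 were tested, with 3 and 1, and of 14 antimicrobial peptides 3, with 0 and 0. The share of all genes that met this unadjusted rule was not computed, so nothing is read from these counts. The median log2 difference between γ and α′/β′ was 1.21 for the antennal and leg list, 0.13 for the ETS list and 0.05 for the Toll list, beside -0.16 for all genes, and between γ and α/β it was 0.22, 0.05 and -0.10, beside -0.11 for all genes. Between α′/β′ and α/β it was -0.74, -0.05 and -0.19, beside 0.07 for all genes. For the BTB, retinal and antimicrobial lists the medians were -0.27, 0.16 and -0.48 in γ against α′/β′, -0.20, -0.01 and -0.86 in γ against α/β, and 0.13, -0.88 and -0.53 in α′/β′ against α/β. All these medians are of quantile-normalized values. In mean TPM, the antennal and leg list went both ways in γ against α′/β′. Among its genes, hth (931 against 453) and tio (33.8 against 4.99, with 122 TPM in γd replicate 1) were higher in γ. By contrast, exd (52.7 against 69.7), Lim1 (3.76 against 10.2) and sqz (6.6 against 15.7) were lower in γ.

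Between single pairs of classes a few of these relatives passed. Toll-7 and Toll-6, receptors of the Toll family that bind neurotrophins, were 2.71 (SE 0.58, adjusted p = 0.0115) and 1.86 (SE 0.44, adjusted p = 0.0217) higher on the log2 scale in γ than in α/β, where 1.43% of genes were higher. psq, the pipsqueak BTB factor, differed by -1.10 in γ against α′/β′ (adjusted p = 0.0414; 1.42% of genes lower), and Eip93F, a pipsqueak-motif factor, by -1.31 in γ against α/β (adjusted p = 0.0223; 1.67% of genes lower). Of the partners of dl, Dif, the other Toll-pathway Rel protein and its neighbour at 3668 bases, with 2 protein-coding genes between them, was at 552 to 1184 TPM in all libraries and above dl in each, and was not called. cact, the inhibitor that holds dl in the cytoplasm, was highest in α/βp like dl, at 424 and 430.8 TPM against 91 to 265 TPM elsewhere, and was not called. sqz, the nearest relative of rn, was at 17.5 and 2.48 TPM in α/βp and 0.28 to 19.9 TPM elsewhere.

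Genes whose level was most like each factor were sought by Pearson's r of normalized log2(TPM + 1) over the 14 libraries among 8645 genes; the libraries share drivers and completeness, so r is a description. For ab they were CG5897 (0.93), dlp (0.92) and hec (0.92), and dlp, a glypican that binds secreted signals, was at 99.0 to 209.5 TPM in γ and 1.07 to 12.3 TPM elsewhere. For dan they were CG34267 (0.96), Indy-2 (0.94) and CG33934 (0.94), and for Ets96B CG11378 (0.95), CG15177 (0.92) and CG11381 (0.92). CG15177 was at 9.30 and 17.3 TPM in α′/β′m and at 0 in every other library. For rn they were Aps (0.90), CG42700 (0.89) and tw (0.88), for disco-r mfas (0.91), shg (0.91) and sli (0.90), and for danr 18w (0.87), CG13894 (0.85) and CG31522 (0.81). For dati they were GlcAT-P (0.92), Rdl (0.91) and Syt12 (0.91), and for dl ctp (0.91), l(1)G0320 (0.91) and Cam (0.90). Among the 8 factors themselves the highest values were 0.78 for ab and dan, 0.61 for dan and danr and 0.57 for rn and dl.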

How the data were processed

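The authors pseudoaligned reads to Ensembl release 91 (BDGP6) transcripts with kallisto, left out spike-in, reporter and ribosomal RNA, and deposited TPM per gene and transcript. The study's read statistics were not used here, and since TPM keeps no depth no counting interval is given; the RNA was amplified before sequencing, and use of strand is not given in the sources used here. All 29 transcripts of the factors matched the annotation, as did 30265 of 30484 in all. Genes with at least 10 TPM in 1 library (8646) were fitted with limma 3.58.1 in R 4.3.3 on log2(TPM + 1) after quantile normalization, with the variance following the mean. Transcript shares were fitted with limma without a trend. Tests were checked on simulated data. Of 200 genes changed by a log2 value of 3, 88.5% were recovered by class and 61.5% by subtype, with 1 and 0 false calls. The 3757 genes simulated were the more abundant ones, with only the spread between libraries of a subtype. Differences between the subtypes of a class were left out, so the class recovery does not describe the class tests used here. Of 200 shares moved by 60 percentage points, 81% were recovered (48% at 30) in γ against α/β (6670 transcripts). In α′/β′ap+m against α/βs (7470 transcripts) 56.5% were recovered (26.5% at 30). The share simulations gave 5 to 11 false calls. Simulated shares were not held to the possible range of a share or to a fixed sum within a gene. In the class simulation, libraries of the same driver line were drawn as independent. These recoveries are therefore only a rough guide to the share tests. Alternatives were the pseudocount, scaling, filters, variance trend, replicate block and each library left out. The factors, lists and tests were chosen with earlier results of these data known. Genes named are the 8 factors, their relatives disco, Dif and sqz, the 3 genes most like each, and list genes called; genes passing 1 pair of classes, cact, and the start-site and subtype comparisons were added after their values were seen. Python 3.11.15, pandas 2.3.3 and matplotlib 3.10.9 were used for the rest.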

Additional observations from a re-analysis of the deposited data

Results flagged for a closer look

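In classes of 4 libraries and in the 6 α/β libraries, a value of a factor or of its relatives was examined when its gap to the nearest other library was large for the range of its group (Dixon's test). Of 33 groups examined over 11 genes, 5 had such a value. Each class pools subtypes that can differ in level, and many values are 0, so this count is set against no chance rate. disco-r was at 16.9 TPM in α′/β′m replicate 1, against 2.10, 2.23 and 4.25 TPM in the other α′/β′ libraries. danr was at 7.3 TPM in α/βs replicate 2, against 0 to 1.76 TPM in the other α/β libraries. dan was at 1.47 TPM in α/βc replicate 2, against 0 to 0.53 TPM. Ets96B was at 0.48 TPM in γm+d replicate 2, with the other γ libraries at 0, and at 0.49 TPM in α/βs replicate 2, against 0 to 0.18 TPM in the other α/β libraries. The last 3 values are below 2 TPM, where TPM without read counts gives no precision.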

How the results depend on the processing

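No called result reversed its direction; of level differences between the 2 highest groups, which were not tested, that of dati changed sign in 3 of 14 alternatives by class and 2 of 8 by subtype, that of danr in 2 of 12 by class and that of ab in 1 of 8 by subtype. The 4 class calls of transcript share, all of dati, were 4 in every alternative. By subtype, 31 transcript shares were called, 26 to 44 with 1 library left out and 6 with only the 4 libraries of each pair; by start site 35 were called, 26 to 46 with 1 library left out and 2 with only the 4 libraries. Of the family and pathway genes, 3 were called by class: 1 with no filter on low values, 1 with no variance trend, 5 without γd replicate 1 and α/βp replicate 1 together, and 1 to 4 with 1 library left out. By subtype 1 was called: 0 with median-ratio scaling, and 0 to 4 with 1 library left out. Replicate numbers did not pair the libraries (correlation of deviations -0.06 to 0.21 over 21 pairs of subtypes, 3 above 0.1); with a replicate block the counts were 3 by class and 1 by subtype for these genes, 4 for shares by class, 29 by subtype and 34 by start site. In all, 148 of 1449 alternative values of called shares and 31 of 92 of called family genes lost their call. The median of all genes was -0.16 in γ against α′/β′ and -0.11 in γ against α/β after quantile normalization, -0.88 and -0.60 with TPM as deposited, and -0.50 and -0.34 with median-ratio scaling. With 2 libraries per subtype, shares rest on a spread shared between subtypes, and genes under 10 TPM are at the limit of what these libraries resolve.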
